A study of Mus musculus with 8 samples.

Results

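The Hox genes were taken as all genes whose Ensembl 96 symbol is Hox, a cluster letter from a to d and a paralog number, which gave 39 of the 36047 genes in the deposited files. They lie in 4 clusters, with 11 genes in HoxA, 10 in HoxB, 9 in HoxC and 9 in HoxD. RNA came from hindlimb muscle stem cells (MuSCs) of male Pax7CreERT2-Rosa26nTnG mice 5 to 6 months old, in which tamoxifen switches the nuclei of cells with an active Pax7 promoter from TdTomato to GFP, and cells with GFP-positive nuclei were sorted from gastrocnemius and quadriceps. The mice received either a vitamin A-free diet (VA-free, 3 mice) for 8 weeks or normal chow (CTRL, 2 mice). All mice carried the same reporter and driver, the label depends on Cre activity from the Pax7 locus, and the chow was not a purified diet matched to the VA-free one. RNA of a mouse was split at the spin column into technical replicates A and B, and 8 libraries were available, 2 for VA-free mouse 3 and for each CTRL mouse and 1 for VA-free mice 1 (B) and 2 (A).

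Hox genes encode homeodomain transcription factors that set positional identity along the body axis and the limb. Within a cluster, genes with low paralog numbers lie toward the 3′ end and are active anteriorly, whereas genes with high numbers are active posteriorly and distally, and adult cells often keep the combination of their place of origin. Retinoic acid, the active metabolite of vitamin A, is a known inducer of Hox genes in the embryo, with 3′ genes responding at lower doses, and the diet comparison asks how these transcripts stood in MuSCs of mice without dietary vitamin A.

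The homeobox sequences of the leading members show how alike the measured genes are. The homeobox is the 180-base part of the gene that encodes the 60-residue DNA-binding homeodomain, and each of the 39 lay in a single exon. Below are the homeoboxes of Hoxb7, the member with the largest fall on the VA-free diet, and of the 2 paralog 10 genes with the highest levels on it, read from the annotated transcripts of GRCm38 (GENCODE M21) along the coding strand. Capitals mark the codons of residues 48 to 53, in the helix that contacts DNA.
Hoxb7, chr11:96289385-96289564, + strand: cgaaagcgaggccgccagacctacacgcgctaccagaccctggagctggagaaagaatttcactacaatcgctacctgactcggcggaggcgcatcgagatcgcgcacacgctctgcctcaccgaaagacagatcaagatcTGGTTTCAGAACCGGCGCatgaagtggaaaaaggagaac
Hoxc10, chr15:102970848-102971027, + strand: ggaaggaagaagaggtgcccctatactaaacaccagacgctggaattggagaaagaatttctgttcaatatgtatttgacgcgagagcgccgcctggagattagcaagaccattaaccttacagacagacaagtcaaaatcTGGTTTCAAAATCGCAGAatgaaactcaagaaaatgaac
Hoxa10, chr6:52232554-52232733, - strand: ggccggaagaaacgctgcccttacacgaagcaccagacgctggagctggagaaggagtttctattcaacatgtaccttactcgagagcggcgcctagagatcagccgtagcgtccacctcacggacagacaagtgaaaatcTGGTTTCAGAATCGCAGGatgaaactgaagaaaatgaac

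Homeoboxes with the same paralog number were more alike across clusters than those within 1 cluster. Over the 42 pairs with the same number the median identity was 80.6% of bases, against 61.7% over 172 pairs within a cluster and 60.6% over the 527 other pairs. Hoxa10 and Hoxc10 shared 80.6% of bases, at the median of such pairs. Despite this, reads could be assigned: only 10 of the 1513 words of 31 bases in Hoxb7 occurred in any other gene, and 24 of the 29 members tested shared at most 5% of their words. The exceptions were Hoxd3 (61.1%) and Hoxd4 (49.1%), which overlap each other and a readthrough transcript, Hoxa2 (13.7%), Hoxa3 (12.6%) and Hoxc10 (7.3%). For Hoxd4, 90.3% of the counts lay on a processed transcript that overlaps Hoxd3, so the values of this pair are uncertain. The protocol does not mark strand, so reads of an antisense partner cannot be told apart from those of the Hox gene it overlaps. Antisense exons lay over 10 of the members tested, of which 7 were lower on VA-free at an adjusted p below 0.05. They lay over none of the bases of the other 19, of which 5 were lower and 1 higher. Beside this, 22.5% of all genes tested were lower and 18.9% higher. They covered 52.9% of the exon bases of Hoxb3, 35.0% of Hoxa11, 27.3% of Hoxb2, 20.4% of Hoxa7, 11.8% of Hoxd4, 8.8% of Hoxd3 and 3.6% of Hoxb5. Hoxb4, Hoxb7, Hoxb9 and Hoxd8 had none, and the part of antisense reads in the results was not tested.

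Per mouse, the Hox total and the share of HoxA overlapped between the diets, whereas the shares of HoxB, HoxC and HoxD did not. Summed over the 39 genes, the level was 126.7 ± 2.96 TPM on the VA-free diet (SD, n = 3) and 139.9 ± 17.06 on CTRL (n = 2). HoxA held 44.7% ± 1.32 of this on VA-free and 44.0% ± 5.26 on CTRL. HoxC held 49.97% ± 0.62 on VA-free and 32.7% ± 2.17 on CTRL, and HoxD 3.89% ± 0.68 and 6.66% ± 2.08. The share of HoxB was 0.84%, 2.13% and 1.38% in the VA-free mice and 20.4% and 12.8% in the CTRL mice, so the groups lay far apart. TPM shares within a library depend on each other, and the TPM scale moved the median of all genes upward on VA-free, by 0.192 on the log2(TPM + 1) scale. On the CPM scale used for the test the HoxC sum was 59.8 ± 1.73 on VA-free and 59.5 ± 5.48 on CTRL, a ratio of 1.005, whereas the HoxB sum was 1.62 ± 0.77 against 25.8 ± 11.8.

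**Figure D1:**
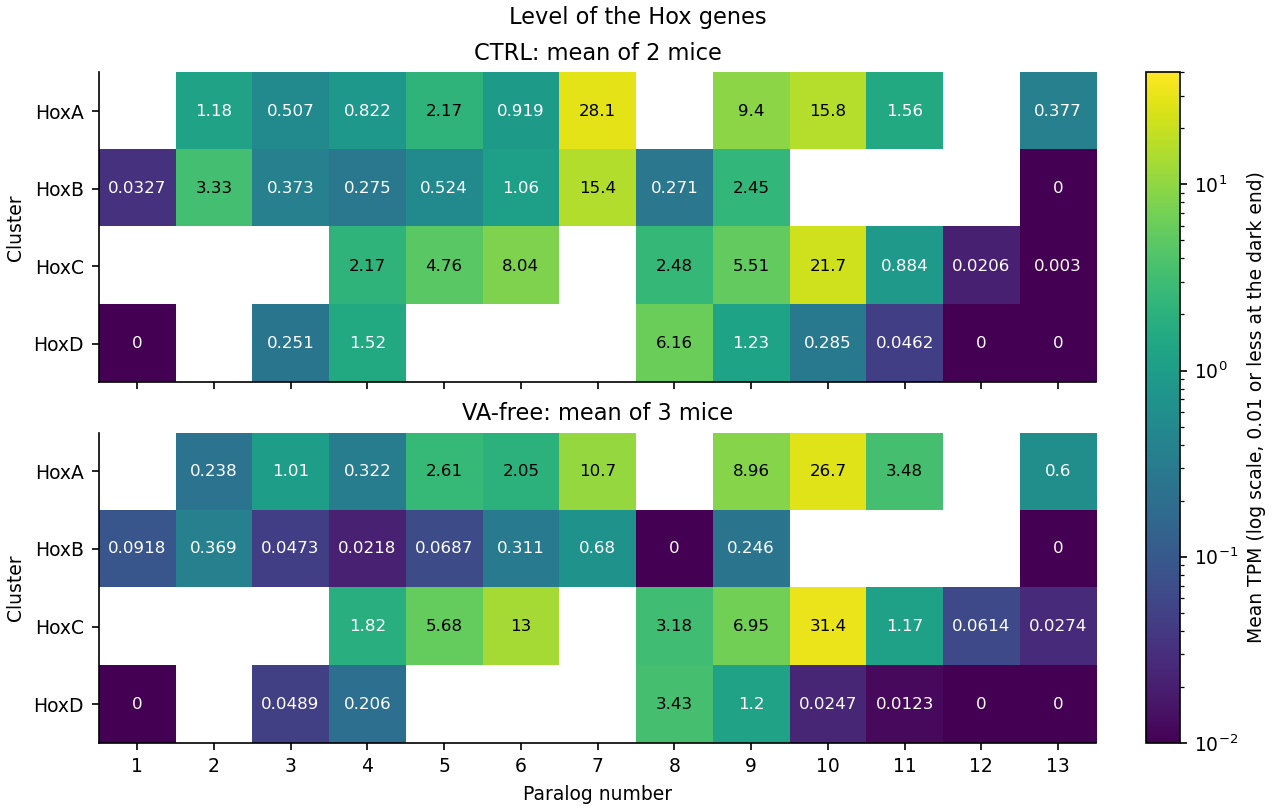
Mean TPM of 38 Hox genes by cluster (rows) and paralog number (columns), for CTRL (2 mice) and VA-free (3 mice), with a logarithmic colour scale; white cells have no gene in the mouse or are not shown. The HoxB row is darker on VA-free at paralog numbers 2 to 9. The paralog 10 cells of HoxA and HoxC stay among the brightest on both diets, and that of HoxD does not.

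By paralog number, transcripts of the middle and the posterior genes dominated. Paralog 10 genes made up 47.04%, 45.02% and 45.4% of Hox TPM in the VA-free mice and 24.5% and 30.0% in the CTRL mice. Paralog 7 genes made up 7.40%, 10.4% and 9.02% in VA-free and 35.4% and 26.1% in CTRL. Together, paralog numbers 1 to 4 gave 4.22 ± 0.65 TPM on VA-free and 10.7 ± 1.02 on CTRL. Numbers 5 to 8 gave 41.7 ± 2.09 and 69.9 ± 18.1 TPM, and numbers 10 to 13 gave 63.4 ± 1.88 and 40.7 ± 0.50 TPM. These sums carry the upward shift of the TPM scale on VA-free given above. In CPM, the mean of Hoxc10 was 31.92 on VA-free and 29.74 on CTRL, and that of Hoxa10 was 28.03 and 20.55. Of the paralog 13 genes, Hoxa13, which acts in the distal limb bud, had 13 to 52 counts per library and was tested. Hoxb13, Hoxd12 and Hoxd13, and also the anterior Hoxd1, had 0 counts in all 8 libraries, which allows up to 0.0126 CPM over the VA-free libraries and 0.0149 CPM over the CTRL libraries.

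The order of the leading members differed between the diets. On VA-free, Hoxc10 led with 30.7, 32.0 and 31.5 TPM, followed by Hoxa10 with 29.7, 25.7 and 24.5. Both are paralog 10 genes, which specify the lumbosacral and thigh level in development. Hoxc10 stood above Hoxa10 in each of these 3 mice. Hoxc6, a thoracic-level gene, came next with 13.9, 14.3 and 10.8 TPM. It stood above Hoxa7, at 9.08, 12.4 and 10.5 TPM, in each of these mice, although their ranges overlapped. On CTRL, Hoxa7 led with 32.8 and 23.5 TPM, followed by Hoxc10 with 23.3 and 20.1. Hoxa10 with 13.4 and 18.1 TPM and Hoxb7 with 21 and 9.81 TPM overlapped. The first 4 members held 64.5% of Hox TPM on VA-free and 57.9% on CTRL.

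The position of the muscles was visible in factors outside the clusters. Tbx4, the T-box factor of the hindlimb, was at 23.2 TPM on VA-free and 9.37 TPM on CTRL, whereas Tbx5, its forelimb counterpart, was at 0.253 and 0.341 TPM. Pitx1, the homeobox gene that specifies hindlimb identity, had 0 counts in each VA-free library and 46, 61, 0 and 15 counts in CTRL 1A, 1B, 2A and 2B. Over the groups this was at least 48-fold lower on VA-free, taking 3 counts over the VA-free libraries as the floor, and at least 30.8-fold lower without library CTRL 1B. Tbx4 was thus above Tbx5 on both diets, as the labelled hindlimb origin has it, whereas Pitx1 had 0 counts in 5 of 8 libraries. A fitted log2 fold change of Pitx1 depends on the prior count and is not given.

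Of the 39 genes, 29 passed the expression filter and were tested by edgeR's quasi-likelihood test. Of these, 12 were lower and 1 was higher on VA-free at an adjusted p below 0.05, and 16 did not pass. The share called was 44.8%, beside 41.4% of all 17997 genes tested, so the number of calls was near the background. The split by direction was not: 41.4% of the tested members were lower, beside 22.5% of all genes, and 3.4% were higher, beside 18.9%. The median log2 fold change was -0.71 over the 29 members and 0.003 over all genes tested. On the log2(TPM + 1) scale 12 members were lower and 5 higher, where 31.3% of all calls were lower in place of 54.4%. In CPM, the mice of one diet did not overlap with those of the other for 20 of the 29 members (69.0%), beside 63.3% of all genes.

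The calls fell unevenly over the clusters. In HoxB, 6 of 7 tested members (85.7%) were lower, beside 22.5% of all genes tested, with log2 fold changes of -5.00 to -2.24 over all 7. The mice and the libraries of the diets did not overlap for any of the 7. The mice did not overlap for 63.3% of all genes either, and that share was not counted for libraries. HoxA had 3 lower and 1 higher of 11, near the shares over all genes (36.4% called beside 41.4%, 27.3% lower beside 22.5%). HoxD had 3 lower of 4. In HoxC, 0 of 7 passed edgeR's test, 0 had an unadjusted p below 0.05, and DESeq2 and limma-voom also called 0. The HoxC log2 fold changes lay between -0.71 and 0.17, and the lowest adjusted p was 0.111. Hoxc4 passed with CTRL library 1B left out (adjusted p = 0.0494), and Hoxc6 and Hoxc10 were higher on the TPM scale. Within the clusters other than HoxB, 4 of 7 tested members with paralog numbers 1 to 4 (57.1%) were lower, as were 2 of 15 with higher numbers (13.3%), beside 22.5% of all genes. That contrast between numbers was not tested.

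**Figure D2:**
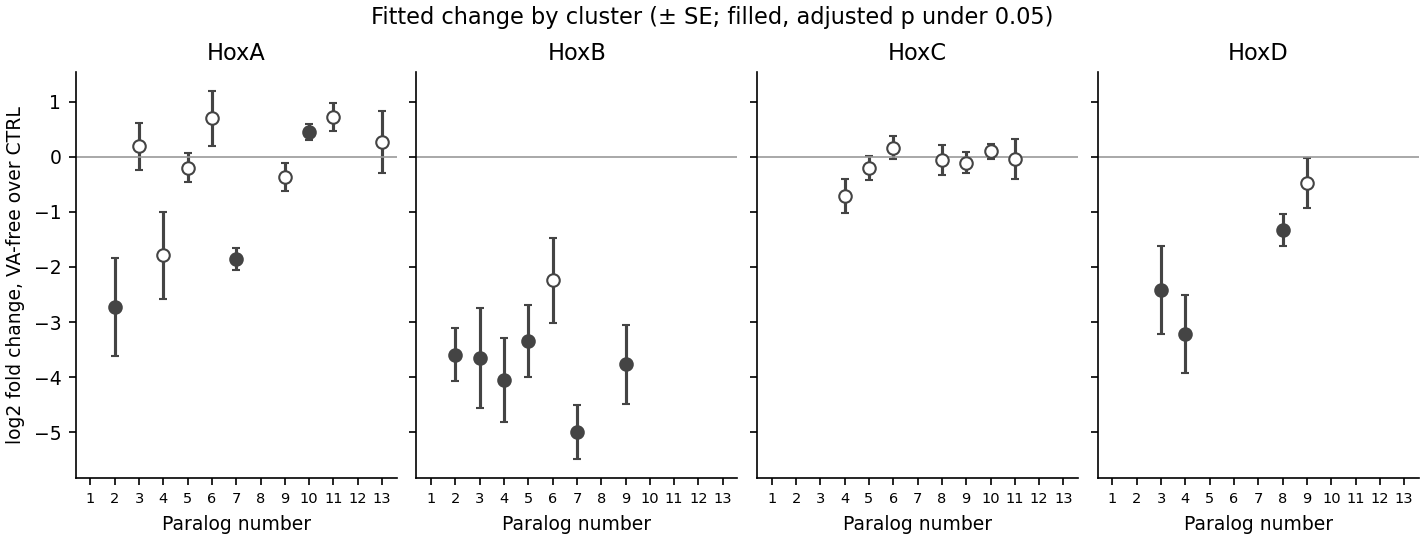
Fitted log2 fold change (VA-free over CTRL, ± SE) of 28 of the 29 members tested, by paralog number in the 4 clusters; filled points passed an adjusted p of 0.05. All 7 HoxB points lie at -2.24 or lower, and the 7 HoxC points lie between -0.71 and 0.17.

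Hoxb7 had the largest change among the members. This paralog 7 gene of chromosome 11 (96286623 to 96290162, + strand, GRCm38), whose homeobox is shown above, had 26 counts in the library of VA-free mouse 1, 38 in that of mouse 2, and 16 and 20 in the libraries of mouse 3. In CTRL it had 830 and 949 counts in the libraries of mouse 1 and 412 and 506 in those of mouse 2. Every CTRL library stood more than 10 times above every VA-free library. In CPM the VA-free mice had 0.284, 0.682 and 0.384 and the CTRL mice 19.5 and 8.70, a log2 fold change of -5.00 ± 0.50 (SE, adjusted p = 0.000534). Nearly all of the signal lay on one protein-coding transcript of 1291 bases.

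The other anterior and middle HoxB members were lower as well. Hoxb2, which acts in hindbrain patterning, had 0.218, 0.574 and 0.277 CPM in the VA-free mice and 4.61 and 3.85 in the CTRL mice (log2 fold change -3.59 ± 0.48, adjusted p = 0.0015). Hoxb9, a thoracic-level gene, had 0.185, 0.646 and 0.139 CPM on VA-free and 5.83 and 2.71 on CTRL (-3.77 ± 0.72, adjusted p = 0.00617). For both, the lowest CTRL mouse was more than 4 times above the highest VA-free mouse. Hoxb4, known for its role in hematopoietic stem cells, had 0.0218, 0.0359 and 0.032 CPM on VA-free and 0.733 and 0.294 on CTRL (-4.06 ± 0.76, adjusted p = 0.00562). Hoxb5 had 0.12, 0.0538 and 0.0533 CPM on VA-free and 0.985 and 0.607 on CTRL (-3.35 ± 0.66, adjusted p = 0.00673). These genes were close to the counting floor on VA-free, with 2, 2, 1 and 2 counts of Hoxb4 in the 4 libraries.

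Hoxb3 and Hoxb6 were less certain. Hoxb3 had 0.0218, 0.0359 and 0.0426 CPM on VA-free and 0.722 and 0.152 on CTRL (log2 fold change -3.66 ± 0.90, adjusted p = 0.017), and the CTRL mice differed from each other by a wider ratio than the lower of them did from the highest VA-free mouse. Its call was lost without VA-free 1 (adjusted p = 0.059) or CTRL 1 (adjusted p = 0.198), by limma-voom (adjusted p = 0.0568) and with the replicate block (adjusted p = 0.0927). The antisense gene is Hoxb3os, which also overlaps Hoxb2. Hoxb6 had 0.0546, 0.377 and 0.352 CPM on VA-free and 1.40 and 1.05 on CTRL (-2.24 ± 0.77, adjusted p = 0.0551). It was thus just outside the threshold, with no overlap between the diets, and passed under 9 of 28 alternatives, among them DESeq2 (adjusted p = 0.0197), limma-voom (adjusted p = 0.0225) and the fit without library CTRL 2A (adjusted p = 0.0315). Hoxb8 had 0 counts in each VA-free library and 27, 6, 0 and 6 in the CTRL libraries, which over the groups is at least 15.4-fold lower. Without CTRL 1A, which held 27 of the 39 CTRL counts, it is at least 6.34-fold lower. Hoxb1, the most anterior HoxB gene, had 23 counts over the VA-free libraries and 10 over CTRL, too few to test.

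**Figure D3:**
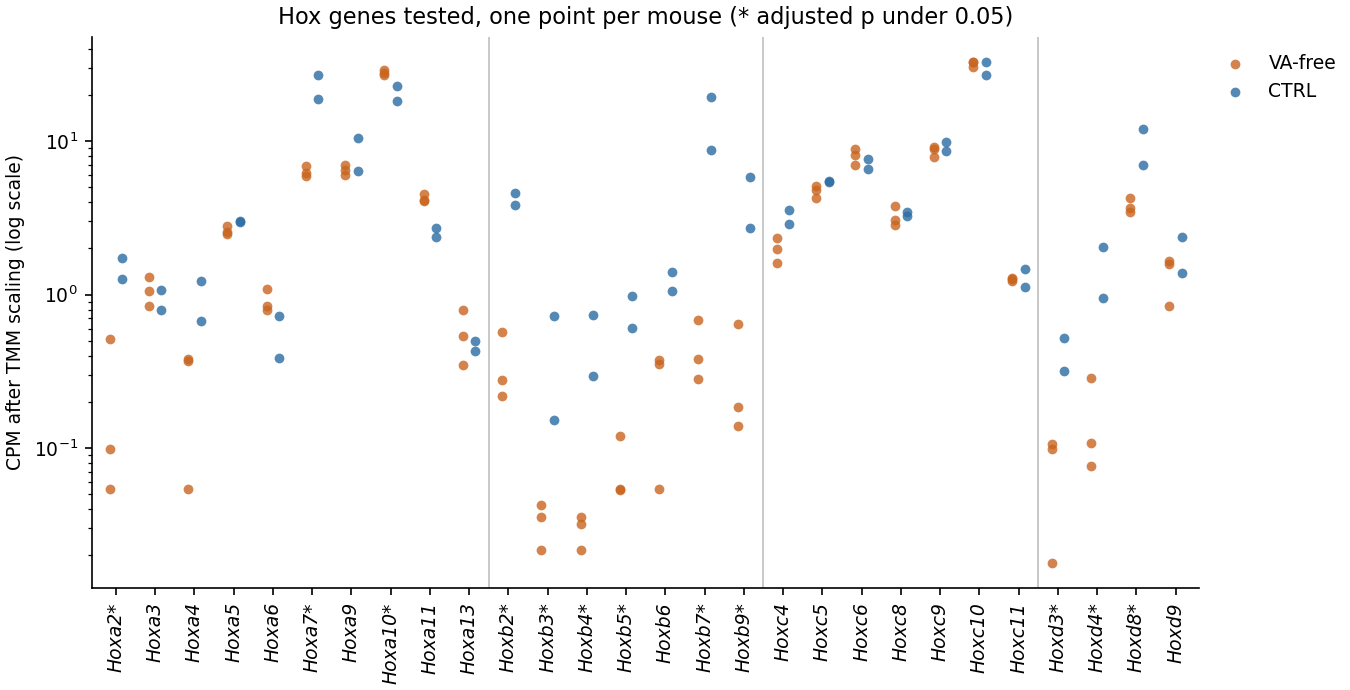
CPM (logarithmic axis) of 28 of the 29 Hox genes tested, 1 point per mouse, VA-free in orange and CTRL in blue; an asterisk marks an adjusted p below 0.05. The HoxB points of the diets are separate for all 7 genes, and those of most HoxC genes overlap.

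In HoxA, the paralog 7 gene fell, and the only posterior gene that passed was higher. Hoxa7 had 5.88, 6.93 and 6.19 CPM in the VA-free mice and 26.8 and 18.8 in the CTRL mice (log2 fold change -1.85 ± 0.20, adjusted p = 0.000745), and no library of a diet overlapped with the other. Hoxa9, a regulator of muscle and blood progenitors, had 6.95, 6.46 and 6.04 CPM on VA-free and 6.37 and 10.4 on CTRL, which overlap (-0.37 ± 0.26, adjusted p = 0.292, and 0.0399 without CTRL 1). The CTRL library 2A alone had 15.5 CPM of Hoxa9, against 6.55 in 2B of the same mouse. Hoxa10 had 29.1, 27.9 and 27.1 CPM on VA-free and 18.4 and 22.7 on CTRL, a log2 fold change of 0.45 ± 0.15 (adjusted p = 0.0492). It was the one member called higher, and its libraries overlapped between the diets. Over the 28 alternative settings its adjusted p ran from 0.0104 to 0.275, and it did not pass under 16 of them. Those included leaving out any VA-free mouse, CTRL 1, or library VA-free 3B, CTRL 1A, CTRL 2A or CTRL 2B. Hoxa11, the paralog of the lower leg and forearm level, had 4.13, 4.07 and 4.51 CPM on VA-free and 2.73 and 2.38 on CTRL (0.73 ± 0.25, adjusted p = 0.0565). It was higher under 8 of 28 alternatives, among them DESeq2 (adjusted p = 0.00817), limma-voom (adjusted p = 0.0467) and the fit without library CTRL 1B (adjusted p = 0.0308).

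Anterior HoxA transcripts were scarce. Hoxa2, which patterns the second pharyngeal arch, had 0.0982, 0.0538 and 0.511 CPM in the VA-free mice and 1.27 and 1.74 in the CTRL mice (log2 fold change -2.73 ± 0.88, adjusted p = 0.0448). Of the 4 VA-free libraries, 3A held 40 of the 60 counts of Hoxa2. Its call rests on few reads and was lost without VA-free 1 or 2, CTRL 1 or 2, or library VA-free 3B, CTRL 1A or CTRL 2B (adjusted p from 0.0686 to 0.147), with the length trend removed (adjusted p = 0.0621) and with 1 library per mouse (adjusted p = 0.212). Of the other HoxA members, Hoxa3, Hoxa4, Hoxa5, Hoxa6 and Hoxa13, did not pass, with log2 fold changes from -1.79 for Hoxa4 to 0.70 for Hoxa6.

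HoxC transcripts were the most even. Hoxc10 had 30.3, 32.6 and 32.8 CPM in the VA-free mice and 32.6 and 26.9 in the CTRL mice, so the diets overlapped (log2 fold change 0.10 ± 0.14, adjusted p = 0.6). Hoxc9 had 7.82, 9.12 and 8.85 CPM on VA-free and 9.80 and 8.66 on CTRL (-0.10 ± 0.19, adjusted p = 0.701). Hoxc6 had 8.16, 8.86 and 6.998 CPM on VA-free and 7.68 and 6.58 on CTRL (0.17 ± 0.21, adjusted p = 0.565). For each of these 3 genes the mice of the diets overlapped. Hoxc5 had 5.10, 4.29 and 4.84 CPM on VA-free and 5.42 and 5.51 on CTRL, a separation of the mice with a small difference (-0.20 ± 0.22, adjusted p = 0.505). Hoxc4, Hoxc8 and Hoxc11 had log2 fold changes of -0.71, -0.06 and -0.04. Hoxc12 and Hoxc13 had 8 counts each over the VA-free libraries, and 3 and 1 over CTRL.

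Within HoxD, the anterior genes and Hoxd8 fell. Hoxd8, the most abundant HoxD member, had 3.47, 3.64 and 4.26 CPM in the VA-free mice and 12.1 and 6.99 in the CTRL mice (log2 fold change -1.33 ± 0.28, adjusted p = 0.00941). It did not pass with 1 library per mouse (adjusted p = 0.0693) or on the TPM scale with a pseudocount of 1 (log2 fold change -0.65, adjusted p = 0.0933) or 0.1 (-0.78, adjusted p = 0.0869). Hoxd4 had 0.0764, 0.108 and 0.288 CPM on VA-free and 2.05 and 0.948 on CTRL (-3.22 ± 0.71, adjusted p = 0.0108). Hoxd3 had 0.0982, 0.0179 and 0.106 CPM on VA-free and 0.317 and 0.521 on CTRL (-2.43 ± 0.80, adjusted p = 0.0471). No mouse of a diet overlapped with the other for these 3 genes, but Hoxd3 and Hoxd4 share reads as described above, and Hoxd3 lost its call under 13 of 27 alternatives, among them the fit without any 1 mouse and those without library VA-free 3A, CTRL 1A, CTRL 2A or CTRL 2B (adjusted p from 0.0628 to 0.19). Hoxd4 lost its call without CTRL 1 (adjusted p = 0.056) and with 1 library per mouse (adjusted p = 0.0671). Hoxd9 did not pass (-0.47 ± 0.45, adjusted p = 0.453). The posterior Hoxd10 had 4 counts over the VA-free libraries (0.0168 CPM) and 70 over CTRL (0.348 CPM), and Hoxd11 had 5 (0.0211 CPM) and 21 (0.104 CPM). On VA-free both stood near the floor of 0.0126 CPM. Over the CTRL libraries together they were above that of 0.0149 CPM, but most of these counts came from CTRL 1. Libraries CTRL 1A, 1B, 2A and 2B held 29, 30, 0 and 11 counts of Hoxd10 and 11, 9, 1 and 0 of Hoxd11. Hoxd11 had 0, 0.0359 and 0.032 CPM in the VA-free mice and 0.219 and 0.00948 in the CTRL mice, which overlap.

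Promoters were compared because several members moved together and retinoic acid receptors bind pairs of short motifs. The RefSeq promoter table (GRCm38.p6, 250 bases before to 50 after the start) held 24 promoters of 22 Hox genes. Hoxb2, Hoxb3, Hoxb5, Hoxb7 and Hoxb9 were not among them, so of the called HoxB members only Hoxb4 was searched. On either strand, AGGTCA or AGTTCA occurred in 8 of these promoters, namely those of Hoxa5, Hoxb4, Hoxc4, Hoxd3, Hoxd4, Hoxd8, Hoxd10 and Hoxd13, and in 27.7% of all 32851 promoters. The promoters of Hoxa2 and Hoxa7, also lower on VA-free, held neither motif. Direct repeats of such a motif with a spacer of 5 or 2 bases occurred in 0 of the 24 and in 0.04% of all for each spacer. That share is too low for 24 promoters to show a lack of them. The 250 bases before the start of Hoxb4 and of Hoxd8, both lower on VA-free and without an annotated exon there, are shown with the motif AGGTCA, on either strand, in capitals. A match is a description of the letters, and its occupancy was not measured.
Hoxb4, chr11:96318017-96318266, + strand: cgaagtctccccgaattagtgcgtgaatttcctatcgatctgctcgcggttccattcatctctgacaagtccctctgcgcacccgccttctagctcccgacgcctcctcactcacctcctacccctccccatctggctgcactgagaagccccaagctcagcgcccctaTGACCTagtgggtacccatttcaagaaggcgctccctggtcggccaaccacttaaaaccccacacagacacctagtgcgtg
Hoxd8, chr2:74704365-74704614, + strand: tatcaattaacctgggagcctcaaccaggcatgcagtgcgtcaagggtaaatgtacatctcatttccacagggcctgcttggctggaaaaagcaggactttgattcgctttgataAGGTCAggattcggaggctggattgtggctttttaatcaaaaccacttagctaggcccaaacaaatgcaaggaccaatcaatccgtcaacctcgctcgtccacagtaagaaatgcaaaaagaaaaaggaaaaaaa

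Transcript estimates within a gene are less firm than gene totals, since isoforms share most of their bases, and they were not tested. The files list 87 transcripts of the 39 genes. All counts of Hoxc10, Hoxa5 and Hoxd9 lay on a single listed protein-coding transcript. Hoxa10 was divided between Hoxa10-202 with 44.4% of its counts, the processed transcript Hoxa10-203 with 35.0% and Hoxa10-201 with 20.4%. Of the Hoxa10 TPM, Hoxa10-202 held 40% on VA-free and 24.4% on CTRL, and Hoxa10-203 held 34.7% and 43.4%. Hoxa7-201 held 31.3% of the Hoxa7 TPM on VA-free and 30.8% on CTRL, and Hoxa7-202 held 35.5% and 46.2%. The fall of Hoxa7 was thus present in both of its leading transcripts, as counts of Hoxa7-201 ranged from 148 to 382 over the VA-free libraries and from 545.5 to 682 over CTRL.

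Technical replicates of a mouse differed as follows. Over the 29 members tested, the median absolute log2 difference between libraries A and B was 0.257 for VA-free 3, 0.443 for CTRL 1 and 0.462 for CTRL 2, with a pseudocount of 0.05 CPM. With 2 control mice, the spread within CTRL rests on 1 difference between animals, and CTRL libraries 2A and 2B differed over all genes tested by a median of 0.72, more than the other pairs of a mouse (0.161 and 0.32).

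Endothelial markers moved between the diets in the same direction as HoxB. In bulk RNA, fewer cells of a type and less RNA per cell cannot be told apart. Of 14 endothelial markers 14 were lower on VA-free, beside 22.5% of all genes tested. Their summed level was 594.5 to 749.2 TPM in the VA-free libraries and 2306 to 6015 TPM in the CTRL libraries. In CTRL 1 the endothelial sum was 6015 and 5812 TPM beside 29.2 and 32.9 TPM of HoxB, and in CTRL 2 it was 2306 and 3421 TPM beside 13.1 and 19.7 TPM of HoxB. The HoxB sum in the VA-free libraries was 1.07 to 2.73 TPM. HoxB and endothelial markers were thus high and low in the same libraries, and their part in the HoxB result was not tested.

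**Figure D4:**
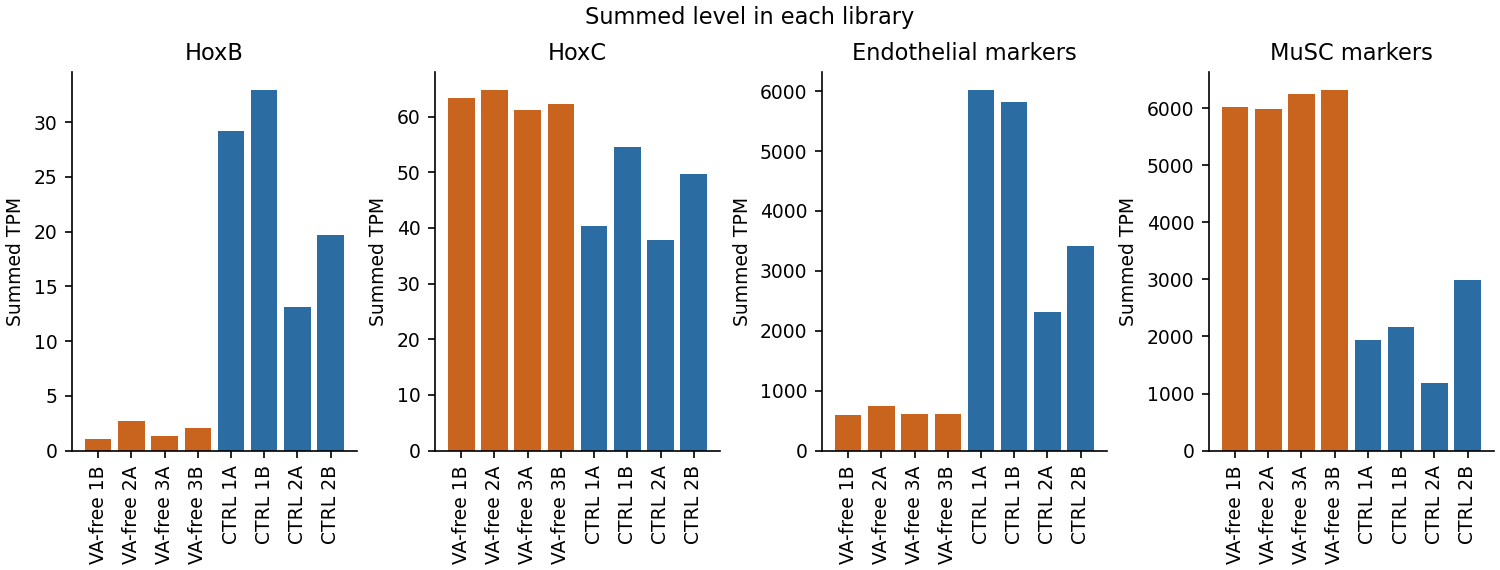
Summed TPM in each library of the HoxB genes, the HoxC genes, 14 endothelial markers and 16 MuSC markers, VA-free in orange and CTRL in blue, each panel with its own axis from 0. HoxB and the endothelial markers are highest in both libraries of CTRL 1 and lowest in VA-free, and the MuSC markers are highest in VA-free.

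The remaining marker lists differed in direction, beside 22.5% lower, 18.9% higher and 41.4% called of all genes tested. Of 16 MuSC markers 15 were higher on VA-free, with a sum of 5994 to 6317 TPM against 1184 to 2991 TPM. Both ends of that CTRL range were libraries of 1 mouse, CTRL 2A and CTRL 2B. Library CTRL 2A also gave the lowest CTRL sum of the other lists, except that of macrophages, where it gave the highest. Pax7 itself was at 49.9 TPM on VA-free and 20.99 TPM on CTRL (log2 fold change 0.76). Schwann cell markers were lower for 12 of 12, with 547.8 to 577.1 against 745.2 to 1131 TPM. Pmp22 made up 92.6% to 94.0% of this sum in the VA-free mice and 56.1% to 63.7% in the CTRL mice. Without it the Schwann sum was 34.8 to 40.6 TPM against 340 to 494 TPM. Macrophage markers were lower for 7 of 14 (41.1 to 231.7 against 270.5 to 1061 TPM) and myofiber markers for 7 of 12 (420.8 to 556.4 against 553.4 to 688.0 TPM). Fibro-adipogenic progenitor markers had 6 lower and 1 higher of 12, pericyte and smooth muscle markers 7 lower and 2 higher of 12, and tenocyte markers 8 lower and 2 higher of 12. The sums of these lists were 10510 to 11270 against 5223 to 8390 TPM, 2244 to 2587 against 1582 to 2449 TPM, and 4076 to 5123 against 1494 to 3252 TPM. Most of the fibro-adipogenic sum on VA-free was Col3a1 (5164 against 1544 TPM), the riser, and Gsn (4464 against 2815 TPM), which did not pass. The fallers of that list included Dcn (69.3 against 1124 TPM) and Ly6a (40.2 against 683 TPM), so its sum does not give the direction of most of its markers. Egr1, an immediate early gene named here after its values were seen, made up 97.2% to 98.2% of the tenocyte sum in the VA-free mice and 76.8% to 77.1% in the CTRL mice. Without it the tenocyte sum was 89.9 to 124 TPM against 527 to 747 TPM, lower on VA-free. No list had a marker without counts in all VA-free libraries. The part of these lists in the Hox results was not tested.

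Of 10 cofactors of the TALE class, homeodomain proteins that bind DNA together with Hox proteins, 4 were higher and 0 lower by edgeR (1 lower at an unadjusted p below 0.05 and 1 by DESeq2). Beside this, 18.9% of all genes tested were higher, 22.5% lower and 41.4% called, so the number of calls in the list was near the background. Those higher were Pknox2 (log2 fold change 1.40 ± 0.19), Meis3 (0.86 ± 0.18), Pknox1 (0.70 ± 0.13) and Pbxip1 (0.52 ± 0.14). Over all alternatives 2 to 6 were higher and 0 to 1 lower. The caudal and ParaHox genes, relatives of the Hox genes, were not expressed at a level that allowed a test for any of 8.

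Among 18 limb and muscle position factors outside the clusters, 6 were higher and 4 lower, beside 18.9% and 22.5% of all genes tested. The risers with high TPM included Pitx3 (log2 fold change 0.60 ± 0.15), Lbx1 (1.10 ± 0.16) and Tbx4 (0.88 ± 0.17), of which Lbx1 acts in limb muscle precursors. The fallers besides Pitx1 were Meox1 (-4.53 ± 0.29), Shox2 (-4.10 ± 0.78) and Meox2 (-3.24 ± 0.37). Tbx5 did not pass (-0.49 ± 0.62, adjusted p = 0.571). Over all alternatives 3 to 10 of the list were higher and 3 to 4 lower.

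Chromatin regulators that keep Hox genes silent or active had more calls higher than lower, where 18.9% of all genes tested were higher and 22.5% lower. In the Polycomb group, which maintains silencing, 15 of 34 were higher and 3 lower, and the largest changes were those of Asxl1 (log2 fold change 1.52 ± 0.12), Epop (1.48 ± 0.27), Phc3 (1.22 ± 0.31) and Pcgf3 (1.08 ± 0.15). The most abundant that passed were Bap1 (0.82 ± 0.13), Mtf2 (-0.65 ± 0.15), Yaf2 (-0.48 ± 0.11) and Jarid2 (1.02 ± 0.23). The catalytic subunit Ezh2, chosen after its values were seen, did not pass (-0.01 ± 0.19, adjusted p = 0.976). Of 23 Trithorax and H3K27 demethylase genes, which maintain activity, 9 were higher and 3 lower, with the largest changes in Hcfc1 (1.77 ± 0.12), Dpy30 (-1.48 ± 0.11), Kmt2d (1.31 ± 0.27) and the demethylase Kdm6a (0.93 ± 0.13). Of 20 retinoic acid receptors, enzymes and coregulators, 8 were higher and 5 lower. The most abundant that passed were the coactivator Ncoa1 (1.15 ± 0.11), the retinal reductase Dhrs3 (-0.90 ± 0.13) and the receptors Rarg (0.81 ± 0.24) and Rxrb (0.91 ± 0.21). Large changes there included those of the synthesizing enzyme Aldh1a3 (-4.00 ± 0.36) and of the retinoic acid-binding proteins Crabp1 (-3.59 ± 0.64) and Crabp2 (-2.33 ± 0.41). The median log2 fold changes of these lists were 0.40, 0.38 and 0.61, beside 0.003 over all genes tested. Over all alternatives, 7 to 23 Polycomb genes were higher and 0 to 5 lower, 3 to 14 Trithorax genes higher and 1 to 5 lower, and 2 to 10 genes of the retinoic acid list higher and 4 to 6 lower.

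Of the 24 protein-coding genes nearest to the Hox clusters, 3 on each side of each, 20 were tested, 6 were lower and 1 was higher, with a median log2 fold change of -0.18, beside 22.5% lower and 18.9% higher of all genes tested. Beside HoxB, Atp5g1 (-1.19 ± 0.11) and Cbx1 (-1.03 ± 0.13) were lower, and beside HoxC Atf7 was higher (0.72 ± 0.16). Beside HoxA, Skap2 was lower (-2.93 ± 0.21), with 4.59, 7.27 and 5.37 CPM on VA-free and 44.3 and 43.1 on CTRL. Inside the clusters, the readthrough transcript Gm28308 of HoxA was the only other gene tested (0.10 ± 0.64, adjusted p = 0.922). DESeq2, which tested more genes, called 1 of the genes inside the clusters lower, 5730596B20Rik.

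**Figure D5:**
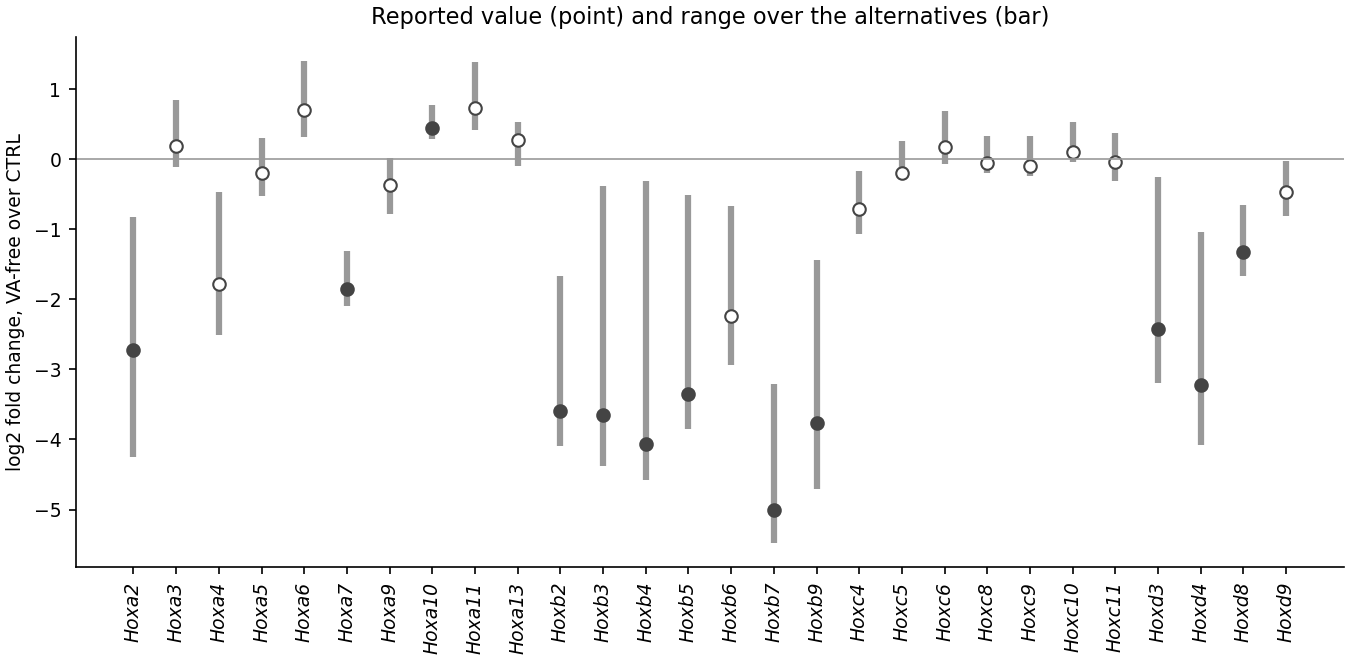
Log2 fold change (VA-free over CTRL) of 28 of the 29 members tested as reported (points, filled at an adjusted p below 0.05) and its range over the alternative settings (grey bars), TPM with a pseudocount included, which understates changes of low genes. The bars of all 7 HoxB members stay below 0, and those of most HoxC members cross it.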

How the data were processed

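RNA of nGFP-labelled MuSCs (VA-free diet, 3 mice; normal chow or CTRL, 2 mice) was measured in 8 libraries, made with a low-input full-length cDNA kit and Nextera XT, which do not mark the strand. The authors pseudo-aligned single-end reads of 75 bases with kallisto (version 0.46.2 in the submitters' processing notes, which also list FastQC) to Ensembl 96 mouse transcripts of GRCm38, and deposited estimated counts per transcript without normalization between libraries. The TPM values deposited by the authors are the same estimates divided by effective transcript length and scaled to one fixed total per library, so they keep no depth. The set of transcripts holds protein-coding genes and pseudogenes. Antisense RNAs, other long noncoding RNAs and microRNAs of the Hox clusters were not analysed here.

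Estimated counts were added per gene and over the libraries belonging to 1 mouse, then rounded. Transcripts without a gene held 0.6473% to 0.7556% of a library's counts and stayed out. The test between diets was that of edgeR 4.0.16, run in R 4.3.3 (TMM factors, filterByExpr, quasi-likelihood test, Benjamini-Hochberg adjustment over the 17997 genes that passed, threshold 0.05). A standard error is the log2 fold change divided by the square root of F. CPM denotes read counts scaled to a common library size (TMM). Libraries held 44831232 to 88650428 estimated counts, and 3 counts in a library correspond to 0.0341 to 0.0674 CPM, a floor that covers counting error only. The code was tested on simulated counts. Alternatives were other scalings, filters and tools (DESeq2 1.42.0 and limma 3.58.1), other uses of the technical replicates, TPM with a pseudocount of 1 or 0.1, trend corrections for length and GC content, a fit with the replicate number as a block, and fits without each mouse or library in turn. No alternative was added after the data were examined.

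The members and the gene and marker lists were chosen with earlier results of these data known. Members are described in full where they passed the threshold, had one of the 8 highest mean TPM values, led their cluster or lay nearest the threshold on either side. Other lists name up to 4 called genes by level and 4 by size of change, and Pitx1, Tbx4, Tbx5 and Pax7 in any case. Some genes that these rules name, and 1 homeobox sequence, are not reported here, although such genes stay in the fits and counts. The labels give the mice as separate animals, but the letters A and B mark parts of the RNA of 1 mouse, so n counts mice.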

Additional observations from a re-analysis of the deposited data

How the results depend on the processing

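Over 28 alternative settings the 29 members gave 791 values, of which 681 kept direction and side of the threshold, 54 lost a call, 25 gained one and 31 changed sign. Hoxa7, Hoxb2, Hoxb4, Hoxb5, Hoxb7 and Hoxb9 kept their calls under each alternative in which they were tested. The count of lower members moved from 12 to 7 with at least 1 CPM in 2 mice (20 members tested) and to 6 with 1 library per mouse (26 tested). Leaving out a mouse or library gave 8 to 14 lower members, 5 to 8 of them in HoxB, and 0 to 2 higher members. The count of higher members was 0 with RLE or upper quartile factors, no filter, 8 separate libraries, 1 library per mouse or the length trend removed, 2 with library size only, DESeq2, limma-voom or the GC trend removed, and 5 with TPM and a pseudocount of 1 or 0.1. For this count and the signs below, the cause was not tested. The calls over all genes were 4476 (without CTRL 2B) to 7744 (without CTRL 1B) with a mouse or library left out, and 5113 (1 library per mouse) to 8498 (TPM with a pseudocount of 0.1) under the other alternatives.

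The deviations of same-numbered mice from their diet mean had correlations of -0.022 and 0.006. With 2 CTRL mice, the CTRL deviations mirror each other, so this check cannot exclude a batch shared by same-numbered mice. With the replicate block 9 members were lower, 5 of them in HoxB, 0 were higher, and Hoxa13 changed sign (-0.094).

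The log2 fold changes of uncalled members near 0 changed sign as follows. With TPM and a pseudocount of 1 or 0.1 they were 0.191 and 0.26 for Hoxa5, 0.217 and 0.255 for Hoxc5, 0.259 and 0.337 for Hoxc8, 0.287 and 0.328 for Hoxc9, and 0.204 and 0.37 for Hoxc11, where the median of all genes was 0.192 and 0.354. With 1 library per mouse they were 0.013 for Hoxc8 and 0.143 for Hoxc9, with the length trend removed 0.021 for Hoxa9, with library size only 0.021 and with duplicateCorrelation 0.06 for Hoxc11. Leaving out a mouse or library gave -0.106 to 0.512 for Hoxa3, -0.508 to 0.309 for Hoxa5, -0.779 to 0.019 for Hoxa9, -0.075 to 0.53 for Hoxa13, -0.073 to 0.436 for Hoxc6, -0.192 to 0.027 for Hoxc8, -0.036 to 0.244 for Hoxc10 and -0.312 to 0.262 for Hoxc11. On protein-coding transcripts only, the VA-free shares of Hox TPM were 41.1% for HoxA, 52.6% for HoxC and 4.59% for HoxD. The VA-free values of Hoxb3, Hoxb4 and Hoxd3 rest on few counts per library.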
